A study of Mus musculus with 8 samples.

Results

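The genes that copy DNA and supply S phase were followed in Lgr5-traced cells that had been sorted from the epidermis of mice whose skin was injured. They are 49 genes chosen by name from the deposited table of 46078 genes, for their textbook roles at replication origins, at the fork, in nucleotide supply and at the G1/S transition. All 49 were found by Ensembl identifier and all 49 passed the filter on low counts. The 8 libraries, made with a stranded kit that selects polyadenylated RNA, fall into 2 conditions of 4, Treg-sufficient and Treg-depleted, that is with regulatory T cells present or removed. Experiment 1 gave replicates 1 and 2 of both conditions, and experiment 2 gave replicates 3 and 4. Every mouse is labelled with the same strain, Lg5-egfp-ires-creert2/R26-tdTomato, a line in which the Lgr5 locus drives green fluorescent protein and an inducible Cre, and Cre turns on a red reporter that descendants keep. All groups share the skin injury, and there is no uninjured group. Which allele or agent removed the regulatory T cells, the ages of the mice and the time after injury are not stated in the labels. Whether replicates are separate animals is not stated either. The p-values here set a difference against the spread between these libraries only. That spread may be technical in part and may not be the spread between animals.

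Before a cell copies its DNA, the origin recognition complex, Cdc6 and Cdt1 load the Mcm2 to Mcm7 helicase on origins in G1, and geminin blocks a second loading. At the G1/S transition cyclin E kinase and the E2F factors switch the program on, Cdc45 and the GINS complex turn the helicase active, and polymerases alpha, delta and epsilon copy the strands behind it with Pcna as their sliding clamp. Hair follicle stem cells are mostly quiescent and enter this program when a follicle grows or the skin is wounded, so the level of these transcripts in a sorted population moves with how many of its cells are in cycle. In bulk RNA, fewer cycling cells and less RNA per cycling cell cannot be told apart.

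The sorted cells carried the markers of their label. Lgr5 stood between 308 and 518 CPM (counts relative to the library size, scaled by TMM) in the 8 libraries, Krt15, the bulge keratin, between 3369 and 7954 CPM and Krt14, the basal keratin, between 2325 and 8877 CPM. Totals over genes ran from 22330729 to 29975347 counts. The libraries differed in other ways than their condition. Treg-sufficient replicate 2 held 2713 CPM of Xist and Treg-depleted replicate 2 held 72 CPM, against at most 2.26 CPM in the other 6 (all on library totals without TMM scaling). Treg-depleted replicate 2 and Treg-sufficient replicate 3 held counts for the fewest genes (18605 and 19593, against 21720 to 23062). Treg-depleted replicate 1 had the highest share of reads in no annotated gene (10.8%, against 6.63 to 10.2% in the other libraries).

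Per kilobase of exon, Pcna was the most abundant of the 49 transcripts at 82.7 CPM per kilobase averaged over the 8 libraries. It was followed by Rrm2, the regulated subunit of ribonucleotide reductase (62.5 CPM per kilobase), by the helicase subunits Mcm6 (61.9) and Mcm4 (59.7), and by Uhrf1, which brings the maintenance methyltransferase to newly copied DNA (53.4). The median was 15.2 CPM per kilobase. At the low end were Orc1 (3.49), the largest origin recognition subunit, Mcm10 (4.88), Gins3 (5.53) and, below all others, Fen1 (0.668), the nuclease that trims Okazaki fragments. In the GENCODE annotation 84.2% of the exon length of Fen1 is covered by exons of genes on the other strand, as is 67.3% for Gins2 and 52.5% for Chaf1a. The strand setting of the counting is not given in the sources used, so values of these 3 genes are uncertain. Pcna and Tyms have named pseudogenes (Pcna-ps1, Pcna-ps2 and Tyms-ps), and reads that aligned to several places were not counted for any gene.

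Promoter sequence is shown because the 49 genes varied together from library to library, and because the shares of promoters with an E2F motif or a CHR differ from those of the mitosis genes they are compared with below. RefSeq promoter entries (build GRCm38.p6, 250 bases before to 50 after the start) were matched by symbol for 40 of the 49 genes. The E2F motif TTTNGCGC (N any base, either strand) was present in 12 of these 40, or 30%, against 424 of 27025 genes with an entry (1.57%). It was found for Orc1, Cdt1, Mcm3, Mcm5, Mcm6, Mcm7, Rfc3, Pola1, Pole2, Lig1, Uhrf1 and Clspn. The cell cycle homology region, CHR (TTTGAA, either strand), an element known from promoters of G2 and mitosis genes, was present in 6 of the 40 (15%), against 20.2% of all genes. Among 32 mitosis genes, 28 with an entry, the E2F motif was present in 1 (3.57%) and the CHR in 21 (75%). A further list of replication genes lay between, with the E2F motif in 5 of 43 (11.6%) and the CHR in 10 (23.3%), and 28 of the 40 member promoters lacked the E2F motif. A match is a run of letters and no proof of binding. Below are the 150 bases before the start, 5′ to 3′, for 3 replication genes whose E2F motif lies in that window outside the GENCODE gene, and for 2 mitosis genes with a CHR there. All but Mcm6 were chosen after their values were seen. Capitals mark the motif, which in Mcm6 occurs 3 times with 2 matches overlapping. The windows are chr1:128359706-128359855 (minus strand) for Mcm6, chr8:75109359-75109508 (plus) for Mcm5, chrX:93632156-93632305 (minus) for Pola1, chr7:135716380-135716529 (minus) for Mki67 and chr11:99024190-99024339 (minus) for Top2a.
Mcm6: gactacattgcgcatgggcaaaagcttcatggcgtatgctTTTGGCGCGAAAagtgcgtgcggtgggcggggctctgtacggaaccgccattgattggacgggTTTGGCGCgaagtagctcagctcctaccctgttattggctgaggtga
Mcm5: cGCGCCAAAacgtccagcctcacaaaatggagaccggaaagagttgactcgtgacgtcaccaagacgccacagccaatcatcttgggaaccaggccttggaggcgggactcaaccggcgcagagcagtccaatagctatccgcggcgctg
Pola1: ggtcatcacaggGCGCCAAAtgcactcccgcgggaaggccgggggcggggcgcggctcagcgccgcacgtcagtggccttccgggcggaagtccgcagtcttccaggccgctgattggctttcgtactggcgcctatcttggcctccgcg
Mki67: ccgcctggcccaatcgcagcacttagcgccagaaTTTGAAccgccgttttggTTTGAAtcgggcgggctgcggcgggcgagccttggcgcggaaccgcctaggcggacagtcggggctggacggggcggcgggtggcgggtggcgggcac
Top2a: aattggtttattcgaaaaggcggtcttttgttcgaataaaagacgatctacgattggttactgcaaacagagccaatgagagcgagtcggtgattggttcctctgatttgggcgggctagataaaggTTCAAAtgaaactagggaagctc

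**Figure D1:**
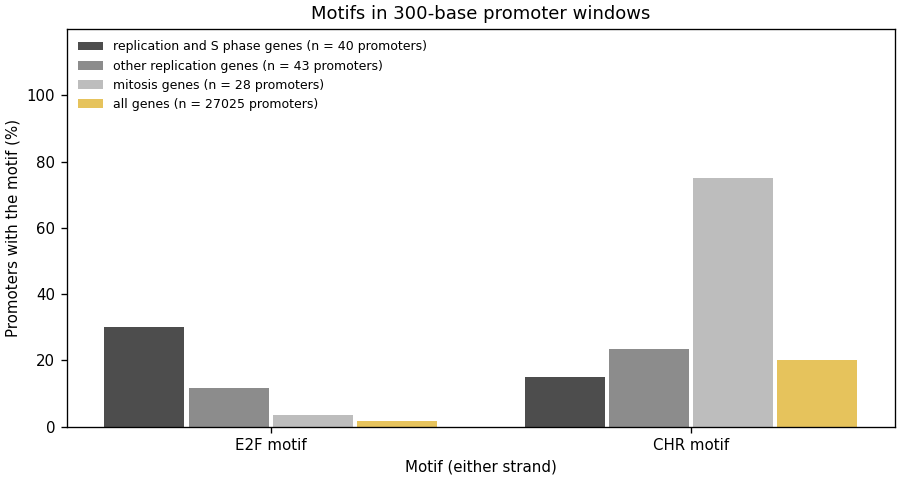
Share of RefSeq promoter windows (300 bases) that hold the E2F motif or the CHR on either strand, in percent, for the 49 replication and S phase genes (40 windows matched), a further list of replication genes (43), mitosis genes (28) and all genes (27025). The E2F motif is in 30% of replication and 3.57% of mitosis promoters, and the CHR in 15% and 75%.

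Between conditions, all 49 genes had a negative log2 fold change in Treg-depleted libraries, with a median of -0.46 (-0.73 to -0.14), where the median over all 16495 genes tested was 0.0019 and 49.7% of genes were negative. None passed the test by edgeR's quasi-likelihood F-test with Benjamini-Hochberg adjustment over all genes at 0.05 (adjusted p = 0.692 to 0.899), a threshold that 0% of all genes passed. At an unadjusted p under 0.05 were 5 of the 49, against 3.62% of all genes on the lower side, and the conditions did not separate for any of the 49 (1.05% of all genes had every Treg-depleted library below every Treg-sufficient one, and 1.27% above). DESeq2 called 0 of the 49 (0.224% of all genes on the lower side) and limma-voom 0 (0%), while edgeR without the filter on low counts called 20 (1.74%). Summed over the 49 genes, the level was 4704, 3393, 6235 and 4790.3 CPM in Treg-sufficient replicates 1 to 4 and 1652, 3319, 4391 and 5498 CPM in Treg-depleted replicates 1 to 4. Only Treg-depleted replicates 1 and 2, both of experiment 1, lay below the whole Treg-sufficient range.

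A single library was low for the whole group. Treg-depleted replicate 1 was the lowest of the 8 libraries for 49 of 49 genes, where it was the lowest for 19.2% of all genes tested. Treg-sufficient replicate 3 was the highest for 41 of 49, against 19.3% of all genes, and Treg-depleted replicate 4 for 7, against 7.71%. Between their highest and lowest library the 49 genes differed by a median of 3.87-fold (1.84-fold for Rfc2 to 10.5-fold for Ccne1), where 10045 genes with a mean of at least 10 CPM and no library at 0 had a median of 1.57-fold. Without Treg-depleted replicate 1 the median log2 fold change was -0.20 and 48 of 49 were negative. It was -0.26 without Treg-sufficient replicate 1.

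**Figure D2:**
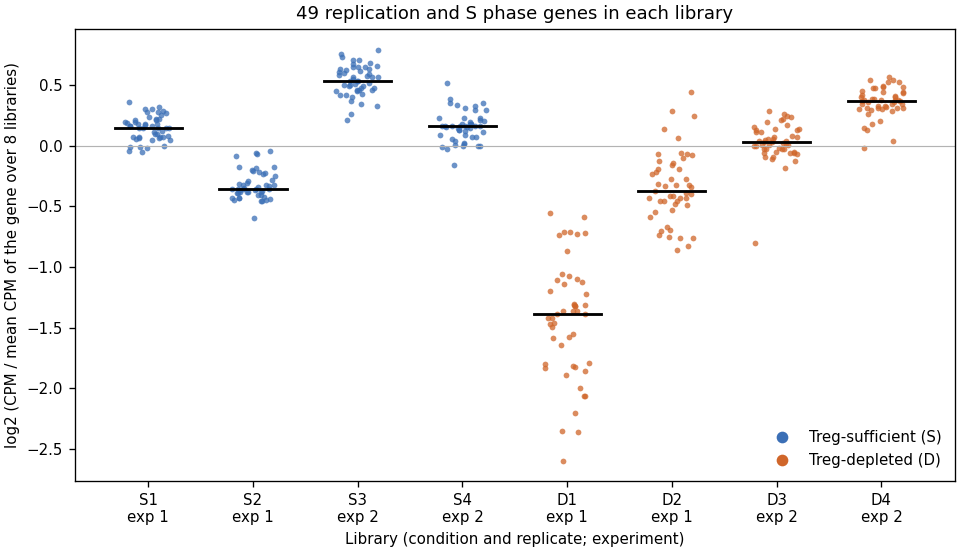
Each point is 1 of the 49 genes in 1 library, as log2 of its CPM over its own mean in the 8 libraries, with the median as a black bar. S and D are Treg-sufficient and Treg-depleted, with the replicate number and the experiment. All 49 points are lowest in Treg-depleted replicate 1 (D1), and Treg-sufficient replicate 3 (S3) is highest for 41.

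Origin licensing genes had a median log2 fold change of -0.53 between conditions, with 11 of 11 negative and 0 passing. Mcm6, a subunit of the replicative helicase (ENSMUSG00000026355, GRCm38 chromosome 1, 128331590 to 128359664, minus strand), stood at 323, 218, 436 and 354 CPM in Treg-sufficient replicates 1 to 4 and at 117, 171, 319 and 374 CPM in Treg-depleted replicates 1 to 4. Both low Treg-depleted libraries were those of experiment 1, and the other 2 lay within the Treg-sufficient range. Its means were 333 ± 90.4 and 245 ± 121 CPM (SD, n = 4 each). The log2 fold change was -0.55 (SE 0.21), and its adjusted p of 0.692 by edgeR's quasi-likelihood test was the smallest of the 49. Mcm4, its neighbour in the helicase ring, stood at 225, 167, 295 and 242 CPM against 102, 194, 211 and 278 CPM in the same order, so that 3 of 4 Treg-depleted libraries fell within the Treg-sufficient range. Orc6, the smallest origin recognition subunit, varied least of the licensing genes: its Treg-sufficient libraries held 51.5, 43.1, 66.1 and 50.9 CPM and its Treg-depleted libraries 29.7, 51.7, 47.7 and 54.9 CPM. Here only Treg-depleted replicate 1 was low, and the log2 fold change was -0.20 (SE 0.18). The other licensing genes (Orc1, Cdc6, Cdt1, the Cdt1 inhibitor Gmnn, Mcm2, Mcm3, Mcm5 and Mcm7) had log2 fold changes of -0.61 (Mcm5) to -0.40 (Mcm3).

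Genes that activate the loaded helicase had a median of -0.47, with 7 of 7 negative and 0 passing. Dbf4, the regulatory subunit of the kinase that fires origins, was measured at 65.3, 48.4, 91.3 and 77.7 CPM in Treg-sufficient and 17.6, 37.4, 66.9 and 83.0 CPM in Treg-depleted replicates 1 to 4. Cdc45, which joins the helicase at firing, held 44.4, 29.1, 56.8 and 43.7 CPM against 9.38, 28.5, 47.8 and 53.5 CPM. In both genes the experiment 1 Treg-depleted libraries were below every Treg-sufficient one, by little in replicate 2 of Cdc45. The 4 GINS subunits act as one complex. Differences between them were not tested, and the values of Gins2 are uncertain, as said above. Gins2, with 37.6, 31.1, 57 and 40.6 CPM against 17, 26.9, 35 and 45.6 CPM, had a log2 fold change of -0.46 (SE 0.19, unadjusted p = 0.0413, edgeR adjusted p = 0.694). Gins3 held 18.7, 14.4, 18 and 16.7 CPM against 5.60, 8.46, 16.4 and 21.6 CPM, so that its Treg-sufficient libraries were close together and its Treg-depleted libraries split by experiment. Gins4, at 38.3, 28.5, 44.7 and 34 CPM against 23.1, 41.0, 32 and 35.5 CPM, had the value nearest 0 of all 49 genes (-0.14, SE 0.19). Gins1 (-0.47) and the helicase factor Mcm10 (-0.44) lay between.

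The clamp and its loader had the median nearest 0 of the 8 roles, -0.30, with 5 of 5 negative and 0 passing. Pcna (ENSMUSG00000027342, chromosome 2, 132249162 to 132253314, minus strand) was present at 224, 152, 304 and 200.01 CPM in Treg-sufficient and 86.7, 189, 186 and 247 CPM in Treg-depleted libraries, and its log2 fold change was -0.33 (SE 0.26). Rfc2, a small loader subunit, held 96.8, 81.7, 116 and 98.1 CPM against 62.8, 67.1, 101 and 114 CPM. Rfc3, another, held 61.6, 46.3, 74.6 and 53.3 CPM against 32.6, 44.4, 55.3 and 62 CPM. In both loader genes the 2 experiment 1 Treg-depleted libraries were the lowest of the 8. For Pcna this held for replicate 1 only. Rfc4 (-0.36) and Rfc5 (-0.29) were similar.

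For the polymerases and primase the median was -0.36, with 8 of 8 negative and 0 passing. Prim1, the catalytic primase subunit, was found at 99.5, 69.6, 122 and 98.5 CPM in Treg-sufficient and 33.3, 67.7, 106 and 115 CPM in Treg-depleted libraries. Pole, the catalytic subunit of the leading strand polymerase epsilon, held 94.7, 65.5, 121 and 108 CPM against 24.6, 47.2, 99.6 and 123 CPM. The Treg-depleted libraries of Pole formed a low pair in experiment 1 and a high pair in experiment 2 with no value between 47.2 and 99.6 CPM. Pole2, its second subunit, split in the same way, with 45.8, 46.1, 55.1 and 59.8 CPM against 21.9, 34, 55.9 and 61.8 CPM. Pola2, the regulatory subunit of polymerase alpha, held 66, 43.8, 78.5 and 63 CPM against 22, 33.8, 55.1 and 76.5 CPM (log2 fold change -0.54, SE 0.24). Its catalytic partner Pola1 held 77.2, 56.9, 108 and 99.3 CPM against 37.4, 62.1, 81.7 and 99.7 CPM, and only replicate 1 of the Treg-depleted libraries was below the Treg-sufficient range. Pold2, a subunit of the lagging strand polymerase delta, held 53.7, 38.1, 64.5 and 42.3 CPM against 28.6, 57.4, 41.5 and 51.8 CPM and was near 0 (-0.14, SE 0.24). Pold1 (-0.44) and Prim2 (-0.23) completed the group.

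Single-strand binding and fragment joining genes had a median of -0.33, with 5 of 5 negative and 0 passing. Rpa1, the large subunit of the protein that coats single-stranded DNA, stood at 142, 138, 186 and 165 CPM in Treg-sufficient and 89.2, 118, 158 and 175 CPM in Treg-depleted libraries, a narrow range for the group. Lig1, the ligase that seals Okazaki fragments, held 141, 104, 201 and 146 CPM against 49.5, 86.1, 137 and 174 CPM, with a log2 fold change of -0.50 (SE 0.23). Fen1 was counted at 1.85, 1.26, 2.17 and 2.32 CPM against 0.619, 2.20, 0.930 and 1.6 CPM, too low and too much shared with the other strand to compare with its partners. Rpa2 (-0.33) and Rpa3 (-0.25) followed Rpa1.

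Genes of nucleotide supply had a median of -0.48, with 5 of 5 negative and 0 passing. Rrm1, the large subunit of ribonucleotide reductase, was present at 308, 237, 397 and 323 CPM in Treg-sufficient and 101, 207, 290.4 and 368 CPM in Treg-depleted libraries. Rrm2, the small subunit, held 181, 135, 256 and 189 CPM against 57.9, 190.5, 162 and 213 CPM. The partners differed in Treg-depleted replicate 2, which lay below both experiment 1 controls for Rrm1 and above both for Rrm2. Tyms, which makes thymidylate, held 84.8, 54.3, 104 and 80.7 CPM against 24.9, 47.9, 71.5 and 92.7 CPM (log2 fold change -0.55, SE 0.26). The thymidine kinase Tk1 (-0.48) and the dUTPase Dut (-0.39) had values in the same range.

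The genes that rebuild chromatin behind the fork had the most negative median of the 8 roles, -0.59, with 4 of 4 negative and 0 passing. Uhrf1 (ENSMUSG00000001228, chromosome 17, 56303321 to 56323486, plus strand) stood at 264, 171, 356 and 279 CPM in Treg-sufficient and 62.9, 134, 234 and 315 CPM in Treg-depleted libraries, and had -0.68 on the log2 scale (SE 0.29, edgeR adjusted p = 0.696). Chaf1b, a subunit of the histone chaperone CAF-1 (ENSMUSG00000022945, chromosome 16, 93883901 to 93906115, plus strand), held 57.9, 45.3, 74.4 and 50.5 CPM against 13.4, 29.8, 46.5 and 61.7 CPM, the most negative of the 49 at -0.73 (SE 0.31, edgeR adjusted p = 0.694). In both genes the low values were again the experiment 1 pair. Chaf1a, its partner, held 55.1, 41.7, 82.2 and 58.3 CPM against 18.6, 38.5, 53.6 and 63.8 CPM. Slbp, which binds the stem loop of histone messages, held 128, 86.4, 163 and 125 CPM against 45.5, 78.2, 127 and 149.8 CPM.

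Among the G1/S regulators and the fork checkpoint gene the median was -0.43, with 4 of 4 negative and 0 passing. E2f1, the transcription factor that turns on S phase genes, was measured at 36.5, 25.4, 49.1 and 38.9 CPM in Treg-sufficient and 11.6, 24.8, 40.2 and 51.6 CPM in Treg-depleted libraries. Clspn, or claspin, which carries the stalled fork signal to the checkpoint kinase, held 61.4, 45.6, 104 and 76.3 CPM against 12, 36.9, 70.5 and 86.2 CPM (log2 fold change -0.66, SE 0.34). Both were lowest in Treg-depleted replicate 1, with replicate 2 also below the Treg-sufficient range. Cyclin E1, Ccne1, had -0.51 (SE 0.45) and cyclin E2, Ccne2, -0.30 (SE 0.25).

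**Figure D3:**
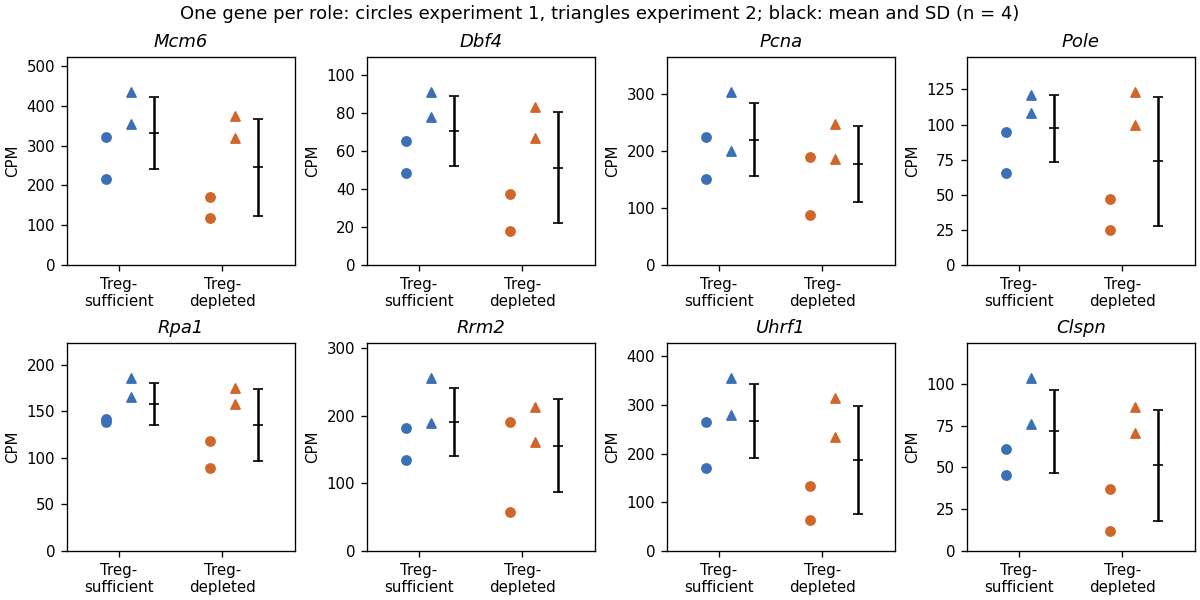
CPM of 1 gene from each of the 8 roles by condition, with circles for experiment 1, triangles for experiment 2 and the mean and SD of 4 libraries in black. In every panel the lowest circle is Treg-depleted, and the Treg-depleted triangles overlap the Treg-sufficient points.

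Within experiment 1 the values were further from 0. All 49 genes were negative there (48% of all genes), with a median log2 fold change of -0.75 (-1.26 to -0.061) against 0.015 over all genes, and for 27 of 49 both Treg-depleted libraries were below both Treg-sufficient ones (19% of all genes). None passed by edgeR after adjustment, against 0.382% of all genes that passed on the lower side, and 19 of 49 had an unadjusted p under 0.05 (6.47% of all genes on the lower side). DESeq2 called 7 of them, Chaf1b, Dbf4, Gins3, Mcm6, Pola2, Pole and Uhrf1, each lower, against 2.91% of all genes on the lower side. Gins3 had the smallest p, with 16.6 ± 3.06 CPM in Treg-sufficient and 7.03 ± 2.02 CPM in Treg-depleted libraries (SD, n = 2; log2 fold change -1.24, SE 0.27, edgeR adjusted p = 0.101). Pole had -1.16 (SE 0.31, edgeR adjusted p = 0.172), Mcm6 -0.91 (SE 0.25, edgeR adjusted p = 0.195) and Cdc6, the loader of the helicase, -1.21. The 2 Treg-depleted libraries were far apart. Without replicate 1 the median was -0.32 and edgeR called 0 of 49, and without replicate 2 it was -1.36 and edgeR called 20 (1.77% of all genes on the lower side), each time with a lone Treg-depleted library in experiment 1 that is assumed to vary like the other groups.

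The other 22 of 49 genes are the remainder of the 27 above and no separate result (19% of all genes had both libraries below). For these 22, Treg-depleted replicate 2 was at or above the lower of the 2 experiment 1 controls. Rrm2, Pold2, Gins4, Orc6 and Fen1, chosen after their values were seen, were above both controls in that library. Gins3, Chaf1b, Pole and Dbf4 were below both.

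In experiment 2 the conditions were close. The median was -0.17, 43 of 49 genes were negative (49.8% of all genes) and 0 passed (edgeR adjusted p = 0.9995 for each, 0% of all genes on the lower side), and 0 had an unadjusted p under 0.05, where 0.897% of all genes did on the lower side. Only Fen1 had both Treg-depleted libraries below both controls, at under 3 CPM, where 15.9% of all genes did. Uhrf1, for example, had -0.21 (SE 0.36), Gins2 -0.28 (SE 0.27) and Chaf1a -0.26 (SE 0.33). Without Treg-sufficient replicate 3 the median turned to 0.063.

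The difference between the experiments' effects was itself tested. For 46 of 49 genes the value was more negative in experiment 1, as for 48.9% of all genes, but 0 passed the interaction test after adjustment (0% of all genes) and 3 had an unadjusted p under 0.05 (3.59% of all genes on that side). These were Gins3 (1.37, experiment 2 minus experiment 1, edgeR unadjusted p = 0.00656, adjusted p = 0.505), Pole (1.12, adjusted p = 0.812) and Pole2 (0.76, adjusted p = 0.815). The median over the 49 was 0.56, and 0.16 without Treg-depleted replicate 1.

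**Figure D4:**
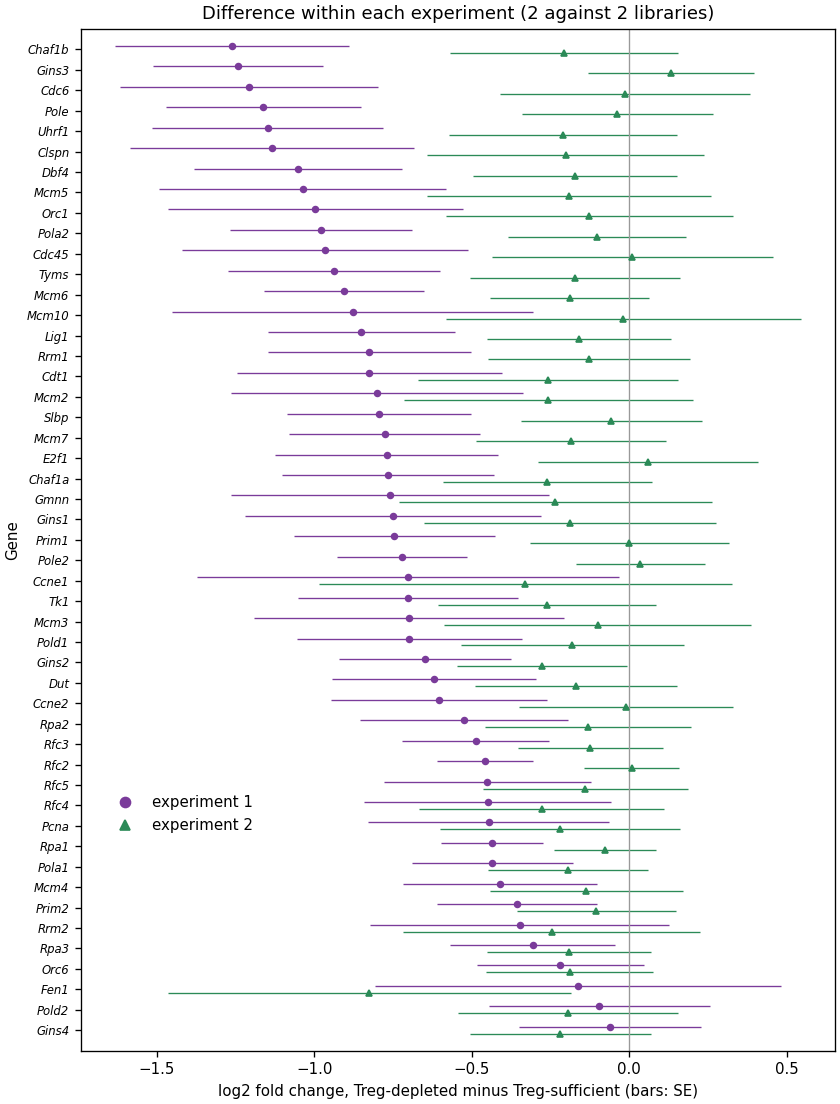
Log2 fold change (Treg-depleted minus Treg-sufficient, horizontal) of each of the 49 genes within experiment 1 (circles) and experiment 2 (triangles), with SE as bars and genes ordered by the value in experiment 1. Circles run from -1.26 to -0.061 and triangles from -0.33 to 0.13, apart from Fen1 at -0.83.

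Across conditions the genes were higher in experiment 2. All 49 log2 fold changes (experiment 2 minus experiment 1) were positive (47.3% of all genes), with a median of 0.74 (0.16 to 1.21) against -0.020 over all genes, and 36 had an unadjusted p under 0.05 (11.4% of all genes on the higher side). After adjustment 0 of 49 passed by edgeR, where 0.903% of all genes passed on the higher side, and the smallest adjusted p were 0.0638 for Mcm6 (0.90, SE 0.21), 0.0640 for Pola1 (0.75, SE 0.18) and 0.0673 for Rpa1 (0.51, SE 0.12). DESeq2 called 24, against 7.32% of all genes on the higher side. For 11 of 49 genes all 4 libraries of experiment 2 were above all 4 of experiment 1, against 7.5% of all genes. Clspn had the widest gap at 1.21 (SE 0.34) and Gins4 the narrowest at 0.16 (SE 0.20). Of the 4 experiment 1 libraries, Treg-sufficient replicates 1 and 2 and Treg-depleted replicate 2 were between 3319 and 4704 CPM in sum, so the experiments differed less without Treg-depleted replicate 1 (median 0.50).

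Replication genes did not move in step with mitosis genes in 2 of the libraries. The 32 mitosis genes, a list of spindle, kinetochore and cytokinesis genes with Mki67 and Top2a, summed to 4013, 2892, 5426 and 4392 CPM in Treg-sufficient and 759, 1568, 4045 and 4882 CPM in Treg-depleted replicates 1 to 4. The ratio of the replication sum to the mitosis sum was 1.17, 1.17, 1.15 and 1.09 in Treg-sufficient libraries and 1.09 and 1.13 in Treg-depleted replicates 3 and 4. It was 2.18 and 2.12 in Treg-depleted replicates 1 and 2. Within a library this ratio does not depend on the scaling, and both experiment 1 Treg-depleted libraries stood apart from the other 6 although their replication sums were far apart (1652 and 3319 CPM). A ratio of single genes behaved alike: Pcna over Mki67 was 0.621 and 0.620 in these 2 libraries and 0.195 to 0.261 in the other 6, and Mcm2 to Mcm7 over Top2a was 3.27 and 3.67 against 2.03 to 2.47. The ratio carries no test, since the lists were chosen with earlier results of these data known.

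Gene by gene the contrast is seen in the same lists and libraries. The lists were chosen with earlier results of these data known, so the values below are no separate support for it. Within experiment 1 the mitosis genes had a median log2 fold change of -1.57, more negative than the -0.75 of the replication genes. At an unadjusted p under 0.05 by edgeR were 32 of 32 (6.47% of all genes on the lower side). After adjustment edgeR called 4 (Cenpf, Kif23, Cenpa and Ccnb2), against 0.382% of all genes on the lower side. DESeq2 called 32, against 2.91%. With 1 library left out the number called by edgeR fell, except without Treg-depleted replicate 2, where it rose. Each such fit left 1 library alone in its group. The median ran from -2.32 without Treg-depleted replicate 2 to -1.12 without replicate 1. All 32 had both Treg-depleted libraries below both controls, against 19% of all genes. Without Treg-depleted replicate 1 the medians were -1.12 and -0.32. In experiment 2 they were -0.16 and -0.17. Mki67 stood at 862, 620.2, 1166 and 1024 CPM in Treg-sufficient and 139.7, 305, 896 and 1006 CPM in Treg-depleted libraries, so replicate 2 was at 305 CPM while its Pcna (189 CPM) lay between those of the experiment 1 controls.

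**Figure D5:**
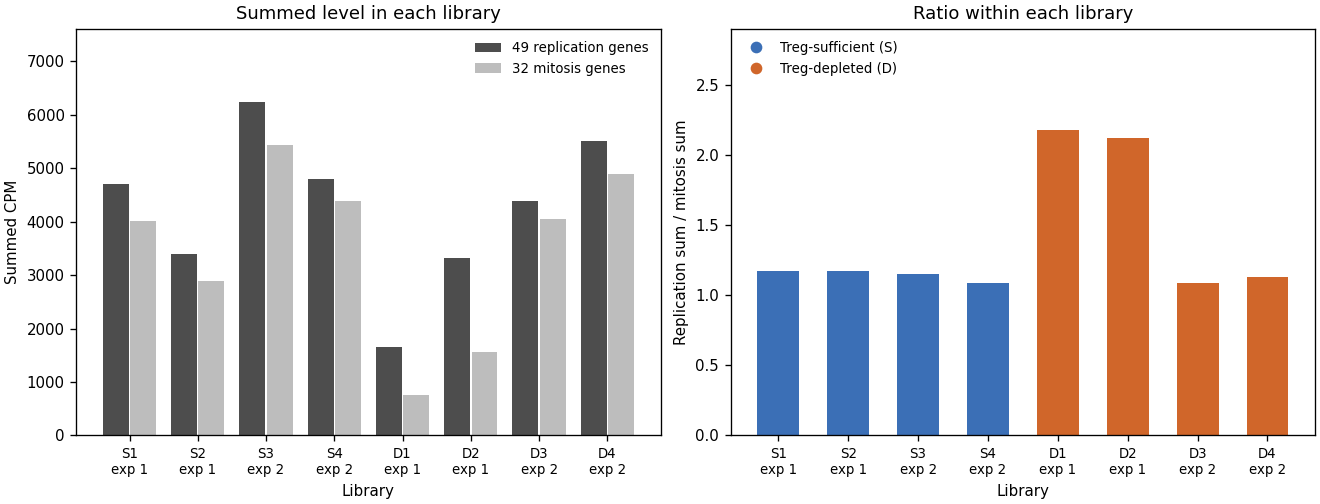
Left, summed CPM of the 49 replication genes (dark bars) and the 32 mitosis genes (light bars) in each library. Right, the ratio of the sums, which is 2.18 and 2.12 in Treg-depleted replicates 1 and 2 (D1, D2) and 1.09 to 1.17 in the other 6 libraries.

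The rest of the pathway was followed in a further list of 52 genes, among them other origin recognition and polymerase subunits, fork protection factors, histone chaperones and E2F and repair genes of S phase. Of these 47 were negative between conditions (49.7% of all genes), with a median of -0.31, and 0 passed in either direction. Lowest in p were E2f3, an activator E2F (40.4, 31, 52.7 and 44.5 CPM in Treg-sufficient against 18.7, 19.1, 37.7 and 49.9 CPM in Treg-depleted libraries, log2 fold change -0.53, SE 0.19), and Recql4, a helicase needed for origin firing (-0.69, SE 0.28). On the positive side Orc3 (0.09, SE 0.09) and the deaminase gene Dctd (0.18, SE 0.17) had the smallest p, and Orc4, Orc5 and Mcmbp were also positive. Orc3 held 67.2 to 85.1 CPM in all 8 libraries, where Orc1 ranged from 3.44 to 17.6 CPM. Within experiment 1, 1 of the 52 passed on the lower side (0.382% of all genes). It was Brca1, a repair gene of S phase, which fell from 57.4 ± 10.4 to 19.6 ± 4.04 CPM (SD, n = 2; log2 fold change -1.55, SE 0.19, edgeR adjusted p = 0.0240). With any 1 library left out except Treg-depleted replicate 2 Brca1 no longer passed (edgeR adjusted p = 0.0121 to 0.115 over the 8). Between experiments 2 of the 52 passed on the higher side (0.903% of all genes). These were Cdk2, the partner of cyclin E (0.71, edgeR adjusted p = 0.0483), and Mtbp, an origin firing factor (0.79, edgeR adjusted p = 0.0446). Both calls were lost with any 1 library left out except Treg-sufficient replicate 1 (edgeR adjusted p = 0.0226 to 0.156 for Mtbp), and that of Cdk2 also with upper-quartile scaling (edgeR adjusted p = 0.0532).

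Other cell types and states moved beside these genes. Melanocyte markers (5 genes) summed to 51.9, 31, 365 and 111 CPM in Treg-sufficient and 19.6, 38.3, 145 and 164 CPM in Treg-depleted replicates 1 to 4. They were lowest in Treg-depleted replicate 1 and highest in Treg-sufficient replicate 3, the libraries at both ends for replication genes. Between experiments all 5 were higher in experiment 2 (47.3% of all genes), with a median log2 fold change of 2.515. By edgeR 3 of the 5 passed there (0.903% of all genes on the higher side). Hair matrix and shaft markers (10 of 11 listed genes in the table) summed to 249 to 625 CPM in Treg-sufficient and 182 to 397 CPM in Treg-depleted libraries. Between conditions 9 of 10 were negative (49.7% of all genes). By edgeR 1 of the 10 passed on the lower side within experiment 1 (0.382% of all genes). Between experiments 3 passed on the higher side (0.903%). Immediate early genes ran the other way, at 13092 and 9781 CPM in Treg-depleted replicates 1 and 2, 7135 and 5718 CPM in replicates 3 and 4 and 1416 to 4875 CPM in Treg-sufficient libraries. Between conditions 21 of 22 were positive (50.3% of all genes). By edgeR 6 of the 22 passed on the higher side within experiment 1 (0.224% of all genes). Differentiated keratinocyte markers (8 genes, 7 tested) summed to 2411, 2073, 814 and 1136 CPM in Treg-sufficient and 1537, 1338, 1461 and 1015 CPM in Treg-depleted replicates 1 to 4, lowest in Treg-sufficient replicate 3. Within experiment 1, 6 of 7 were negative (median log2 fold change -1.15, 2 at an unadjusted p under 0.05), and within experiment 2, 6 of 7 were positive (median 0.58, 3 at an unadjusted p under 0.05). None passed after adjustment by edgeR in either experiment, and the interaction median was 1.73 with 0 passing. Markers of blood and vessel cells were near 0 throughout: T cell markers (6 genes) summed to 2.92 to 12.8 CPM, macrophage and Langerhans cell markers (6) to 2.15 to 5.39 CPM, neutrophil markers (6) to 3.34 to 10.8 CPM and endothelial markers (5) to 1.62 to 8.58 CPM, with Cd3e, a T cell receptor complex gene, at 0 in 7 of 8 libraries and Ly6g and Retnlg at 0 in all. Fibroblast markers (9, 7 tested) summed to 265 to 325 CPM in Treg-sufficient and 257 to 352 CPM in Treg-depleted libraries, a sum that is mostly Fbln1 (179 to 333 CPM). Gene by gene, most had negative values within experiment 1, with a median log2 fold change of -1.57, 5 of 7 negative and 2 positive. At an unadjusted p under 0.05 by edgeR were 3 on the lower side and 1 on the higher side, and 0 passed after adjustment. Dcn, or decorin, named after its values were seen, stood at 2.34 and 3.20 CPM in Treg-depleted replicates 1 and 2 and at 7.10 to 83.4 CPM in the other 6 libraries. Follicle stem and basal keratinocyte markers (10) summed to 28336, 28449, 19115 and 20286 CPM in Treg-sufficient and 19962, 33435, 18104 and 15947 CPM in Treg-depleted replicates 1 to 4. Between conditions 5 of 10 were negative (49.7% of all genes). Between experiments 5 were lower in experiment 2, each at an unadjusted p under 0.05 by edgeR (10.6% of all genes on the lower side). Of the 5 that were higher, 2 were at that level (11.4%) and 1 passed after adjustment (0.903%). The part of any of these genes in the level of the replication genes was not tested.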

How the data were processed

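The authors deposited a table of whole-number read counts per gene, not normalized, for all 8 libraries, with 5 tallies of unassigned reads that were left out of library sizes and tests (alignment to several places took 26.2 to 30.6% of reads, no feature 6.63 to 10.8%). Per the submitters' processing notes, TopHat2 (version 2), SAMtools, HTSeq and DESeq2 were used with GRCm38.p4. Neither the annotation release nor the strand setting of counting is given in the sources used. Identifiers were matched to symbols for 45143 of 46078 genes, and 18467 genes had no count.

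Genes were filtered with filterByExpr (minimum count 10), scaled by TMM and tested with edgeR 4.0.16 (quasi-likelihood F-test, R 4.3.3) with Benjamini-Hochberg adjustment over the 16495 genes tested and a threshold of 0.05. The condition model held the experiment number as a term, and 4 groups of 2 sharing 1 estimate of the spread gave the values within experiments and the interaction. CPM use TMM-scaled library sizes, and SE is the log2 fold change divided by the root of F. The tests were first tested on simulated data. Alternatives were DESeq2 1.42.0, limma-voom (limma 3.58.1), other scalings, no filter, a replicate block and libraries left out.

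Members were given values in every library by a rule. In each role it took the 2 members with the highest mean CPM, not per kilobase, and the one with the smallest p between conditions. It also took the 3 most negative and 3 least negative members, any member passing, and the 3 with the smallest p in each other comparison. From the further replication genes it named the 2 with the smallest p in each direction and any that passed. Of these, values in every library were given for E2f3 only. The members and lists were chosen with earlier results of these data known. Promoter sequences are from RefSeq (GRCm38.p6), and gene positions from GENCODE (GRCm38). Protein sequences were not used here.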

Additional observations from a re-analysis of the deposited data

How the results depend on the processing

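Between conditions 0 genes were called at an adjusted p under 0.05 by edgeR (1175 at an unadjusted p under 0.05). Without the filter on low counts 820 of 27611 genes were called, 481 of them lower (1.74% of all genes), and 20 of the 49 members, all lower. DESeq2 called 84 genes, 37 of them lower, and 0 members. Within experiment 1, 100 genes were called, 1152 without the filter (30 members), 721 by DESeq2 (7 members), 487 without the 2 libraries with Xist counts (30 members, median -1.62) and 570 without the 2 libraries with the fewest genes (22 members, median -1.32). Within experiment 2 the count was 132 without the filter and 1 by DESeq2. The median turned to 0.064 without the libraries with the fewest genes, where Treg-sufficient replicate 4 was alone in its group. The interaction gave 534 genes without the filter (9 members), 182 by DESeq2 and 89 without the Xist libraries (4 members, median 1.44), and a median of 1.39 without the libraries with the fewest genes. Between experiments 2443 of 27611 genes were called without the filter, 1282 of them higher, and 44 members, all higher. DESeq2 called 2167 genes, 1207 of them higher (7.32% of all genes), and 24 members, all higher. Without the Xist libraries 2 genes were called, and 0 without those with the fewest genes. The causes were not tested.

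With 1 library left out at a time, the median over members ran from -0.60 to -0.20 between conditions, -1.36 to -0.32 within experiment 1, -0.37 to 0.063 within experiment 2, 0.16 to 1.21 for the interaction and 0.50 to 0.90 between experiments. Within experiments and for the interaction, each such fit left 1 library alone in its group, assumed to vary like the other groups. Members called ran from 0 to 20 within experiment 1 and 0 to 6 between experiments, and all genes called from 0 to 442, 0 to 9 for the interaction and 0 to 651 between experiments. The replicate letters were not taken as pairs: correlations of deviations from the condition mean were 0.179, 0.130, 0.0941 and 0.314, not all over 0.1, and letters share an experiment. From the mean of condition and experiment they were -0.0953 in experiment 1 and -0.118 in experiment 2. With the replicate number as a block, 0 genes and 0 members were called between conditions and the median was -0.49.

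Over the genes named by the rule and all alternatives, the sign changed in 2 of 648 values between conditions, 8 of 450 within experiment 1, 55 of 435 within experiment 2 (21 of 29 genes), 28 of 435 for the interaction and 1 of 465 between experiments. Dctd was at -0.0018 between conditions without the Xist libraries, and Pold2 ran from -0.40 to 0.0064 with 1 library left out. Gins4 ran from -0.57 to 0.27 within experiment 1. Within experiment 2 Gins3 ran from -0.078 to 0.32 and Chaf1a from -0.49 to 0.0070, and Chaf1a was at 0.0080 without the libraries with the fewest genes. Every library held at least 22330729 counts, and Fen1 was the only member under 3 CPM.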

Other observations

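Of the 40 members with a promoter entry, the 12 with the E2F motif had a median log2 fold change of -0.52 between conditions and -0.84 within experiment 1. The 28 without it had -0.44 and -0.72. The CCAAT box (CCAAT, either strand) was present in 24 of the 40 promoters (60%), in 75% of mitosis promoters and in 41.1% of all. In the group of further replication genes, Treg-depleted replicate 1 was the lowest library for 46 of 52, and in the mitosis list for 32 of 32, against 19.2% of all genes.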
